A study of Mus musculus with 38 samples.

Results

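Ribosome biogenesis factors are the proteins that transcribe, modify, cut and assemble the precursors of the ribosome, and 49 of their mouse genes were followed in CD4 T cells. The genes were chosen by symbol, and all 49 of them were found among the 24028 genes of the deposited count table. All 49 passed the filter on low counts, and the smallest count of any of them in any library was 342. The study measured polyA RNA in 38 libraries of CD4 T cells, each from 1 mouse, in 10 groups of 4 libraries or, for rescue cells, 3. Naive cells were isolated with a kit from the lymph nodes and spleen of male or female mice, and the other state was 24 h of culture on plates coated with anti-CD3 (0.5 µg per ml) and anti-CD28 (0.2 µg per ml) in medium with 50 U per ml interleukin-2. Both states were measured in 5 genotypes. These were wild-type (wt), CD28-/-, T1792delta/delta (called T1792del here), T1792tg/tg (called T1792tg) and rescue. As known of the study's mice, Cd4-driven Cre deletes a floxed miR-17~92 cluster in T1792del cells and switches on a Rosa26 transgene of the cluster in T1792tg cells, and rescue mice are CD28-/- mice with that Cre and transgene. None of these groups carried Cre alone, so Cre and the cluster cannot be told apart. No culture went without the antibodies or interleukin-2, so responses include the culture itself. Wild-type libraries serve as the reference of several comparisons, which are therefore not independent of each other.

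Ribosomes are built in the nucleolus. RNA polymerase I transcribes a long precursor of the ribosomal RNA, small nucleolar ribonucleoproteins (snoRNPs) guide its chemical modification, and large assemblies of processing factors cut it and fold it into the small and large subunit. Resting T cells keep this activity low, and activated T cells raise it before they divide. MicroRNAs of the miR-17~92 cluster are known to favour the growth of lymphocytes. CD28 is the receptor that gives naive T cells most of their costimulatory signal.

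Total counts per library ran from 19427291 to 24982429 in naive and from 22267060 to 28020721 in stimulated libraries. Within a group, libraries correlated at 0.9899 to 0.9983 (Pearson, log2 CPM over all genes tested). CPM is counts per 1000000 counts of the library, with library sizes scaled by TMM, so that values are shares of a library and the RNA content of a cell was not measured. Mir17, a precursor of the cluster, had 0.334 ± 0.0969 CPM (SD, n = 4) in naive wild-type and 6.55 ± 0.9 CPM (n = 4) in naive T1792tg libraries. Stimulated T1792tg libraries held only 0.624 ± 0.231 CPM of Mir17 (n = 4). Rescue libraries held 6.88 ± 1.84 CPM in naive and 0.571 ± 0.0399 CPM in stimulated cells (n = 3 each). Mir17 had no counts in the 4 stimulated T1792del libraries, beside 0.131 ± 0.0188 CPM (n = 4) in stimulated wild-type ones. Naive T1792del libraries held 0.0641 ± 0.0766 CPM (n = 4), so this check of the deletion lies near the floor. Mir17hg, the host transcript of the cluster, had 172 ± 11.8 CPM in stimulated T1792del and 20.7 ± 2.44 CPM in stimulated wild-type libraries (n = 4 each). In naive cells it had 54.4 ± 7.88 and 51.6 ± 7.25 CPM (n = 4 each). Cd28 counts do not check the CD28-/- label, since they were 737 ± 135 CPM (n = 4) in naive CD28-/- and 825 ± 86.8 CPM (n = 4) in naive wild-type libraries. Xist marked 3 of 4 wild-type, 4 of 4 CD28-/-, 2 of 4 T1792del, 1 of 4 T1792tg and 3 of 3 rescue mice as female in each state. The defining genes of CD4 T cells were present in every group, with a summed level of 4590 to 5530 CPM in naive and 2560 to 4130 CPM in stimulated libraries. Markers of other cells had lower sums in stimulated than in naive libraries. The 9 B cell markers summed to 138 to 583 CPM in naive and 22.6 to 89.7 CPM in stimulated libraries, and the 10 myeloid markers to 82.6 to 280 and 5.4 to 9.67 CPM. Red cell transcripts stood highest in naive T1792del libraries, at 5050, 2610, 1920 and 1180 CPM, where the first of these libraries held 4980 CPM of CD4 T cell markers. They summed to 18.4 to 949 CPM in the other naive and 0.451 to 88.5 CPM in the stimulated libraries. In bulk RNA, fewer cells of a type and less RNA per cell cannot be told apart.

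In wild-type cells, nearly the whole set rose within 24 h of stimulation. Together the 49 genes took 5802 to 6281 CPM in the 4 naive libraries and 21790 to 22580 CPM in the 4 stimulated ones. A gene is called where its Benjamini-Hochberg adjusted p, over the 13650 genes tested by edgeR's quasi-likelihood test, is below 0.05. By that rule 47 of the 49 genes were higher and 1 was lower, where 41.3% of all genes tested were higher and 43.9% lower. The median log2 fold change was 1.64 for the 49 genes and -0.06 over all genes tested. Among 103 other genes of ribosome biogenesis, 95 were higher and 7 lower, with a median of 1.27. The 83 tested genes of cytosolic ribosomal proteins, the parts of the finished ribosome, did not share this rise, with 17 higher, 33 lower and a median of -0.07.

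**Figure D1:**
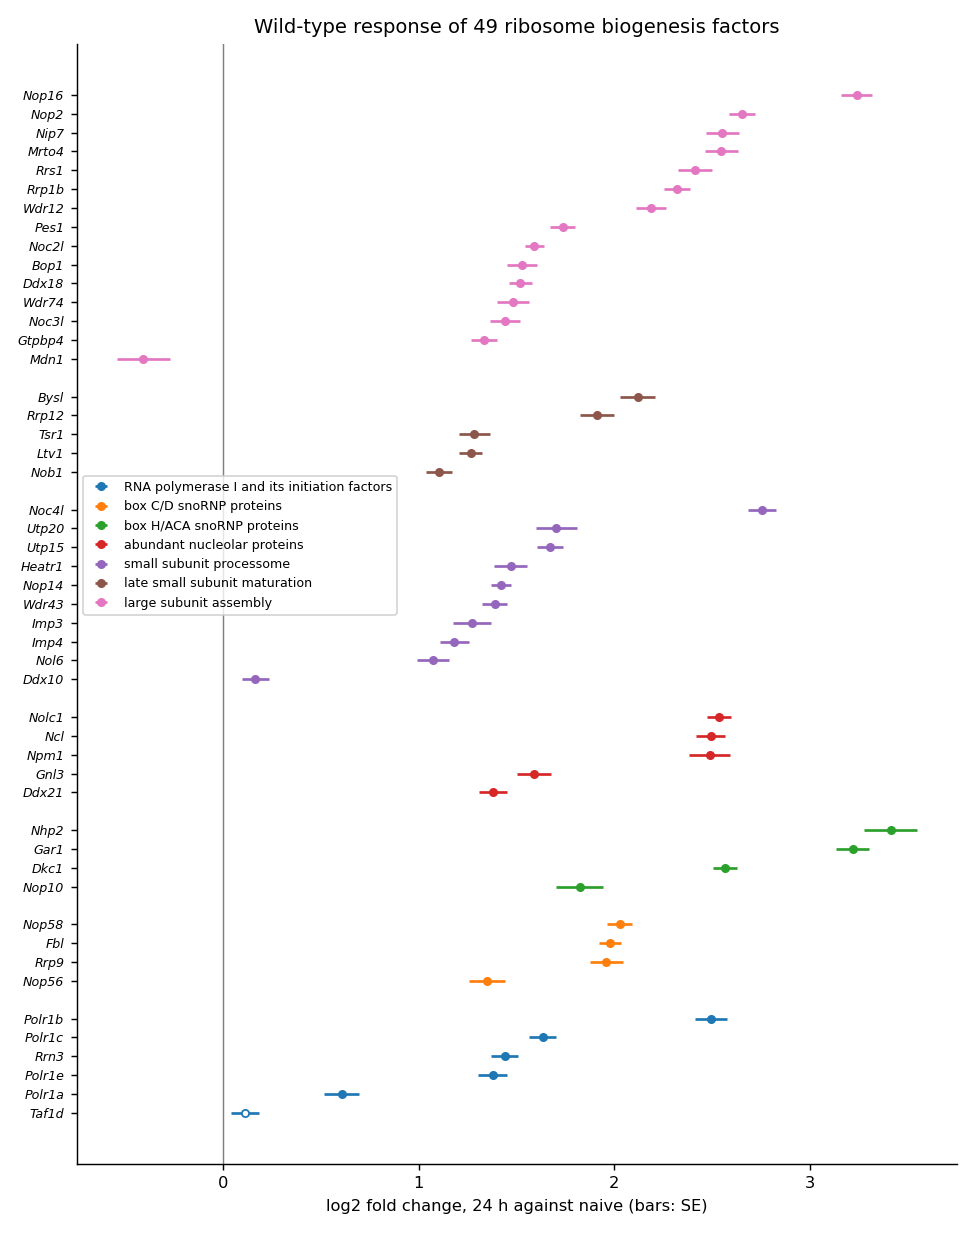
Log2 fold change of each of the 49 genes in wild-type cells, 24 h against naive (x axis), by gene (y axis) and coloured by role; points are estimates over 4 against 4 libraries, bars are standard errors, and the open point is not called. Values run from -0.41 for Mdn1 to 3.41 for Nhp2, and the 4 genes of the box H/ACA snoRNP group lie between 1.82 and 3.41.

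The RNA polymerase I group holds subunits of the enzyme and factors that recruit it. Of its 6 genes, 5 rose, led by Polr1b, the second largest subunit, with a log2 fold change of 2.50 ± 0.08 (SE; adjusted p = 7.8e-25). Polr1a, the largest subunit, rose less. It read 141, 126, 130 and 139 CPM in the naive and 208, 209, 204 and 194 CPM in the stimulated wild-type libraries, without overlap (log2 fold change 0.61 ± 0.09, adjusted p = 1.4e-07). Rrn3, the initiation factor that ties polymerase activity to growth signals, read 61, 66, 66.8 and 60 CPM in naive and 180, 171, 169 and 168 CPM in stimulated libraries. All 4 stimulated libraries were above all naive ones (log2 fold change 1.44). Polr1c, a subunit that RNA polymerases I and III share, had 48.4, 48.1, 45 and 52.4 CPM before and 148, 153, 147 and 154 CPM after stimulation (1.64), again without overlap. Polr1e, a subunit found only in polymerase I, rose by 1.38. Taf1d, a subunit of the selectivity factor that brings the polymerase to its promoter, was the 1 gene of the 49 without a call. Its naive libraries held 132, 154, 140 and 149 CPM and its stimulated ones 156, 157, 148 and 160 CPM, which overlap (0.11 ± 0.07, adjusted p = 0.14).

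The snoRNP proteins rose in all 8 cases. The box H/ACA group, whose particles guide the conversion of uridine to pseudouridine, had the highest median of the 7 role groups, 2.89. Nhp2, one of its core proteins, read 36.2, 29.9, 27.1 and 39.2 CPM in naive and 354, 361, 355 and 340 CPM in stimulated wild-type libraries. No stimulated library came near a naive one (log2 fold change 3.41 ± 0.14, adjusted p = 2.1e-22). Dkc1, the pseudouridine synthase of the particle, rose by 2.57 and Gar1, another core protein, by 3.22. Nop10, the smallest change of the group, still rose by 1.82 ± 0.12 (adjusted p = 2.3e-16). The box C/D group, whose particles guide methylation of the ribose, had a median of 1.97. Nop58, a scaffold of these particles, rose from 167, 189, 173 and 191 CPM to 764, 740, 719 and 717 CPM (2.03 ± 0.06, adjusted p = 2.6e-25). Its stimulated libraries all stood far above the naive ones. Fbl, the methyltransferase of the particle, rose from 56, 51.7, 48.8 and 56 CPM to 220, 206, 205 and 207 CPM (1.98). Rrp9, which binds the U3 snoRNA, rose by 1.96. Nop56, the partner of Nop58, had the smallest change of the group, 1.35 ± 0.09 (adjusted p = 6.9e-16).

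Of the 49 genes, Ncl and Npm1 of the abundant nucleolar group had the highest CPM in every wild-type library. Ncl encodes nucleolin, which binds the ribosomal RNA precursor, and rose from 1040, 914, 882 and 985 CPM to 5490, 5550, 5430 and 5020 CPM (log2 fold change 2.49). Npm1 encodes nucleophosmin, a nucleolar chaperone, and rose from 698, 605, 579 and 697 CPM to 3540, 3650, 3490 and 3790 CPM (2.49). Neither gene's naive libraries overlapped its stimulated ones. Divided by the gene length given in the deposited table, Npm1 stood highest of the 49 genes in stimulated wild-type cells, at 1990 ± 72.8 CPM per kilobase (n = 4), followed by Ncl with 651 ± 29 and Nop58 with 372 ± 11. Ncl has a deposited length of 8257 bases, which lowers its value on this scale. Nolc1, a chaperone of snoRNPs, had the largest change of the group (2.54 ± 0.06, adjusted p = 2.3e-28), from 133, 144, 130 and 127 CPM to 845, 793, 751 and 713 CPM. Ddx21, a helicase that acts on polymerase I transcripts, had the smallest (1.38 ± 0.07, adjusted p = 2.6e-19). Gnl3 rose by 1.59.

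All 10 genes of the small subunit processome, which makes the first cuts of the precursor, were higher. Noc4l, which works in a complex with Nop14, rose from 35.7, 41, 37.5 and 37.2 CPM to 260, 272, 248 and 243 CPM, with wide separation of the groups (2.76 ± 0.07, adjusted p = 1.8e-27). Ddx10, a helicase, changed by only 0.17 ± 0.07 (adjusted p = 0.027), and its call was lost under 3 other settings (a log2 fold change of 0.06 in the smallest case). The other 8 genes (Utp20, Utp15, Heatr1, Nop14, Wdr43, Imp3, Imp4 and Nol6) rose by 1.07 to 1.71. The 5 genes of late small subunit maturation rose by 1.10 ± 0.07 for Nob1, the nuclease that makes the last cut (adjusted p = 3.7e-17), to 2.12 ± 0.09 for Bysl (adjusted p = 5e-22). Between them were Rrp12 with 1.91, Tsr1 with 1.28 and Ltv1 with 1.27.

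Of 15 genes of large subunit assembly, 14 were higher. Nop16 had the largest change, 3.24 ± 0.08 (adjusted p = 2.3e-28). Nip7 rose from 38.4, 45.3, 37.4 and 44.6 CPM to 244, 244, 237 and 248 CPM, and Rrp1b from 49.4, 57.8, 54.6 and 53.4 CPM to 274, 270, 269 and 264 CPM. Both were separated in all libraries. Pes1, Bop1 and Wdr12, which form the PeBoW complex, rose by 1.74, 1.53 and 2.19. Nop2, Mrto4 and Rrs1 rose by 2.41 to 2.65, and Ddx18, Wdr74, Noc2l, Noc3l and Gtpbp4 by 1.34 to 1.59. Mdn1, a very large motor protein that pulls assembly factors off the maturing subunit, was the exception. It read 411, 379, 503 and 538 CPM in naive and 339, 336, 346 and 359 CPM in stimulated libraries, where every stimulated value was below every naive one (-0.41 ± 0.14, adjusted p = 0.006). Its direction depends on a trend with gene length that ran through the libraries, and with that trend removed it was 1.19.

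Because the set rose together, the stretch of promoter recorded for each gene by RefSeq (GRCm38.p6, 250 bases before to 50 after the start) was searched for the E-box CACGTG, a motif that reads the same on both strands and that MYC and other factors of its class can bind. Windows were found for 43 of the 49 genes, and 9 of the 43 (20.9%) held the motif, beside 11.6% of the 10744 tested genes with a window. The holders were Rrn3, Nop2, Imp4, Mdn1, Pes1, Ltv1, Tsr1, Utp20 and Wdr43. Those 3 with the motif wholly before the start are shown, 250 bases each, 5′ to 3′ on the plus strand, with the motif in capitals. They are chr16:13780449-13780698 for Rrn3, chr6:125131633-125131882 for Nop2 and chr1:34439579-34439828 for Imp4.
Rrn3: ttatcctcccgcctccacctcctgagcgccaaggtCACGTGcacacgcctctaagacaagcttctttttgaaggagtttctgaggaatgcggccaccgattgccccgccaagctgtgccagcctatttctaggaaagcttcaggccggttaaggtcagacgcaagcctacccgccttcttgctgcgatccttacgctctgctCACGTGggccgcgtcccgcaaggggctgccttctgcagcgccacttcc
Nop2: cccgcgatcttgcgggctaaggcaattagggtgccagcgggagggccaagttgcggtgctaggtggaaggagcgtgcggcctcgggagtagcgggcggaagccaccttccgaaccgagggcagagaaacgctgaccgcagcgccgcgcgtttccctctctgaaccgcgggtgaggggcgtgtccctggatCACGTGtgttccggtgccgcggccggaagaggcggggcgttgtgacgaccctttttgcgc
Imp4: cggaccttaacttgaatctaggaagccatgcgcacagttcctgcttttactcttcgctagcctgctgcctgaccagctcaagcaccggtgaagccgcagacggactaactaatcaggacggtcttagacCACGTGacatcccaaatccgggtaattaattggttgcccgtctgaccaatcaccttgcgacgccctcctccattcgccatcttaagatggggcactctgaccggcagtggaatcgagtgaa
Rrn3 holds the motif at 215 and 48 bases before its start, Nop2 at 60 and Imp4 at 121 bases before it. A match is a description of these letters, and binding was not measured. Rrn3 rose by 1.44, Nop2, a methyltransferase of the large subunit RNA, by 2.65 and Imp4, a processome protein, by 1.18 on the log2 scale in wild-type cells.

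The set also rose in every other genotype, to different extents. In CD28-/- cells 46 genes were higher and 1 lower (39.7% and 41.2% of all genes), with a median log2 fold change of 1.34. In T1792del cells 47 were higher and 0 lower (41.4% and 43.7%), with a median of 1.55. All 49 were higher in T1792tg cells (41% and 44.1% of all genes were higher and lower), with a median of 1.86. All 49 were also higher in rescue cells (38.8% and 40.8%), with a median of 1.76. Taf1d was the gene that fell in CD28-/- cells. It held 145, 160, 174 and 179 CPM in naive and 129, 110, 123 and 119 CPM in stimulated CD28-/- libraries (-0.45 ± 0.07, adjusted p = 7.6e-07), and 115, 131, 139 and 108 against 201, 170, 189 and 177 CPM in T1792tg libraries, where it rose (0.58). In rescue libraries it went from 124, 134 and 119 to 146, 146 and 143 CPM (0.21). Of the 103 other biogenesis genes, 89, 93, 95 and 92 were higher in CD28-/-, T1792del, T1792tg and rescue cells.

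**Figure D2:**
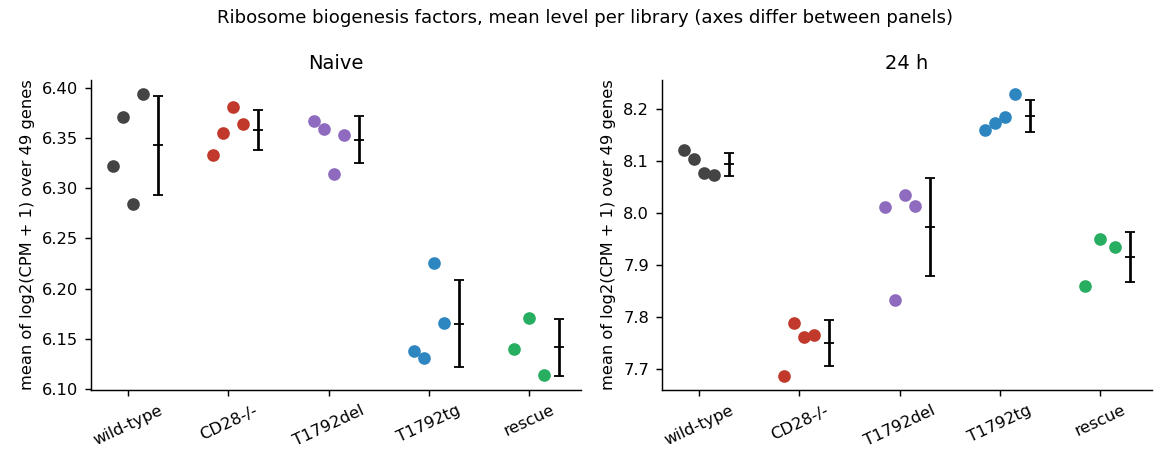
Mean of log2(CPM + 1) over the 49 genes in each library (points), with the group mean and SD (bar to the right), by genotype in naive (left) and stimulated cells (right). Naive T1792tg and rescue libraries lie at 6.11 to 6.23, below all other naive libraries at 6.28 to 6.39, and stimulated CD28-/- libraries lie lowest, at 7.69 to 7.79.

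In naive cells, the 2 genotypes with the transgene had the lower levels. The 49 genes summed to 5017 to 5206 CPM in the T1792tg and 5060 to 5323 CPM in the rescue libraries. They summed to 5802 to 6281 CPM in wild-type, 6036 to 6471 CPM in CD28-/- and 5979 to 6290 CPM in T1792del libraries. In T1792tg against wild-type cells 1 gene was higher and 23 lower, where 10.5% of all genes were higher and 12.6% lower, and the median was -0.19. In rescue against CD28-/- cells, which share no library with the first comparison, 0 were higher and 26 lower (7.84% and 8.92% of all genes), with a median of -0.22. Of the lower genes 20 were shared, 87% of the first and 76.9% of the second list. The share over all genes tested was not counted, so this overlap may not be particular to the 49 genes. The log2 fold changes of the 2 comparisons had a Pearson correlation of 0.77 over the 49 genes, given as a description. Among the other biogenesis genes 32 of 103 were lower and 5 higher in the first comparison, and 34 lower and 0 higher in the second. None of the 83 ribosomal protein genes was called in either. Their sums varied within groups, over 54750 to 76900 CPM in naive wild-type and 62560 to 70560 CPM in T1792tg libraries. The ranges were 63700 to 87950 CPM in CD28-/- and 59650 to 83610 CPM in rescue libraries. With such a spread, a missing call does not show equal levels.

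The naive decrease was spread over most roles. In T1792tg against wild-type cells it took 4 of 6 polymerase I genes, 3 of 4 box C/D, 4 of 5 nucleolar, 5 of 10 processome, 4 of 5 late small subunit and 3 of 15 large subunit genes. In rescue against CD28-/- cells the counts were 3, 3, 4, 6, 2 and 8 in the same order. No box H/ACA gene was called in either comparison, with log2 fold changes of -0.20 to 0.25. Nop58 had the smallest p in both. It read 127, 136, 143 and 124 CPM in naive T1792tg libraries, all below the wild-type values of 167 to 191 CPM (-0.44 ± 0.06, adjusted p = 3.1e-06). In rescue it read 144, 162 and 135 CPM, below 196, 213, 228 and 219 CPM in CD28-/- libraries (-0.54 ± 0.07, adjusted p = 9.7e-07). Tsr1, which binds the maturing small subunit, was lower in both (log2 fold changes -0.53 ± 0.08 and -0.69 ± 0.09, adjusted p = 8e-06 and 9.9e-07). Gnl3, a nucleolar GTPase also called nucleostemin, had -0.47 ± 0.09 and -0.49 ± 0.09 (adjusted p = 0.00016 and 4e-04).

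Rrn3 read 50.7, 51.7, 49.9 and 51.3 CPM in naive T1792tg libraries, below 60 to 66.8 CPM in wild-type, and 48.5, 48.8 and 52.1 CPM in rescue against 50.1, 61.9, 65.8 and 56.1 CPM in CD28-/- libraries. Only the first pair of groups stayed apart. Ncl read 909, 796, 682 and 850 CPM in naive T1792tg and 836, 839 and 836 CPM in rescue libraries. The rescue values were below all CD28-/- values (927, 986, 990 and 989 CPM), while 1 T1792tg library reached into the wild-type range. With the trend over gene length removed, Ncl was called in neither comparison. Its log2 fold changes were then -0.15 in T1792tg and -0.17 in rescue cells (adjusted p = 0.11 and 0.1). Polr1a fell to 111, 96.1, 85.1 and 108 CPM in T1792tg cells (-0.42 ± 0.09, adjusted p = 0.00079), under every wild-type library, and was not called in rescue cells (102, 88.9 and 115 CPM against 112 to 128 CPM). Nolc1 was lower in both (116, 110, 119 and 126 CPM in T1792tg; 99.1, 97.8 and 98.7 CPM in rescue against 114 to 121 CPM in CD28-/-). Polr1c moved the other way. It read 57.8, 54.8, 61.2 and 63.2 CPM in naive T1792tg libraries, above every wild-type library (0.29 ± 0.07, adjusted p = 0.0023), and 54.5, 63.5 and 48.5 CPM in rescue against 44.5 to 52.2 CPM in CD28-/- libraries, where it was not called.

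With only the libraries of the compared groups in the fit, 15 genes were called in naive T1792tg and 9 in naive rescue cells. Of the T1792tg mice 1 of 4 was female against 3 of 4 wild-type mice, and a term for sex left 24 genes called. All rescue and CD28-/- mice were female. Stress and dissociation genes summed to 7670 to 11200 CPM in naive T1792tg and 6030 to 13400 CPM in wild-type libraries, which overlap, and to 4450 to 5690 and 4790 to 5460 CPM in rescue and CD28-/-. The part of sex and of such RNA in these differences was otherwise not tested.

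The microRNAs of the cluster act by pairing of bases 2 to 8, the seed, with transcripts, so the naive decrease was read beside the seed sites of the lower genes. The mature sequences (RefSeq, GRCm38.p6, 5′ to 3′) are shown with the seed in capitals, and they fall into 4 families, since miR-17 and miR-20a share a seed and miR-19a and miR-19b share another.
mmu-miR-17-5p: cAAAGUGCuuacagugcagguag
mmu-miR-20a-5p: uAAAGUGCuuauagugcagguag
mmu-miR-18a-5p: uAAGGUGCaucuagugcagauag
mmu-miR-19a-3p: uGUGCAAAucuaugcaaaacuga
mmu-miR-19b-3p: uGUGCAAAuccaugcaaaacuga
mmu-miR-92a-3p: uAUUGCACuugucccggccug
Each seed's 7-base complement was searched in the longest annotated 3′ UTR of each gene (GENCODE M21, at least 30 bases). Of the 49 genes 11 (22.4%) held a site of any family, beside 34.5% of 12678 tested genes. The median UTR was 834 bases long for the 49 genes and 1324 bases for all. Of the 20 genes lower in both naive comparisons 5 (25%) held a site, and of the other 29 genes 6 (20.7%). The median UTR was 1177 bases long for the 20 genes and 816 bases for the other 29. The part of UTR length in these shares was not tested. With the length trend removed, Ncl and Heatr1 would not be among the 20. The 5 were Ncl, Nop58, Rrn3, Taf1d and Tsr1, and 24 bases around each of their sites are shown, with the match to the seed in capitals.
Ncl, miR-92a-3p: acaaacagtacaGTGCAATctgaa
Ncl, miR-17-5p: tctgctttttggGCACTTTcttgg
Nop58, miR-17-5p: cgtttatctgttGCACTTTtcatg
Nop58, miR-17-5p: gagctcgtttctGCACTTTtaaaa
Rrn3, miR-19a-3p: gagagcagagagTTTGCACcacca
Taf1d, miR-19a-3p: agggcttaggatTTTGCACtgcat
Tsr1, miR-18a-5p: gtgacttagtggGCACCTTgaaaa
Both Nop58 sites, which start at bases 2281 and 2523, lie in an annotated UTR of 7723 bases, longer than the 1976 bases of the gene in the deposited table, so the counted transcript may lack them. Of the site holders not lower in both naive comparisons, Gtpbp4 and Imp4 had the same limit. Their annotated UTRs had 6791 and 4886 bases, and their deposited lengths were 2577 and 2249 bases. A match shows these letters and no regulation by the microRNA.

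The other naive comparisons moved few of the genes. In naive CD28-/- against wild-type cells 4 genes were higher and 3 lower, where 7.42% of all genes were higher and 7.34% lower. Bysl, a factor bound to late precursors of the small subunit, was lower (-0.45 ± 0.09, adjusted p = 0.00083), as were Rrp1b (-0.22 ± 0.07, adjusted p = 0.02) and Nolc1 (-0.18 ± 0.06, adjusted p = 0.038). Wdr12 was higher (0.37 ± 0.08, adjusted p = 0.0013). Nop58, Gtpbp4 and Npm1 were also higher, by 0.25, 0.26 and 0.31. The 7 calls became 2 with the compared groups alone and 4 without naive CD28-/- library 4. Stress and dissociation genes summed to 4790 to 5460 CPM in these CD28-/- libraries, below every wild-type library, and their part was not tested. In naive T1792del cells Fbl was the only gene called, at 62.8, 60.9, 63.8 and 65.2 CPM against 48.8 to 56 CPM in wild-type (0.25 ± 0.06, adjusted p = 0.0042). That makes 1 higher and 0 lower, where 2.76% and 2.42% of all genes were called. Red cell transcripts (1180 to 5050 against 310 to 949 CPM) and myeloid markers (188 to 280 against 111 to 162 CPM) were higher in every naive T1792del than in every wild-type library, and their part was not tested.

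**Figure D3:**
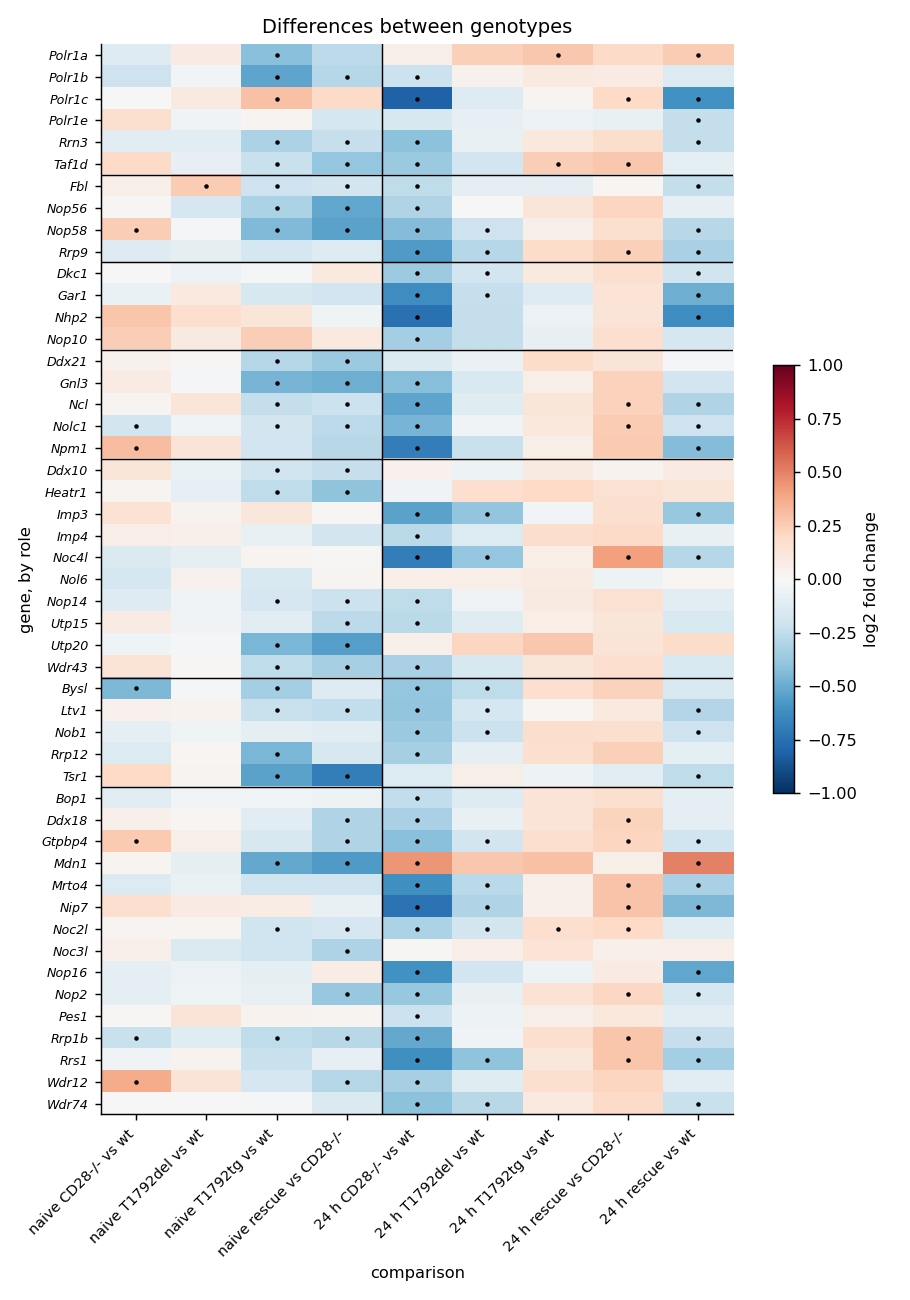
Log2 fold change (colour, red higher and blue lower in the first named genotype) of each of the 49 genes (rows, by role) in 9 comparisons between genotypes (columns, naive left and stimulated right of the line); a dot marks a call. The naive columns with the transgene hold 23 and 26 lower calls, and the stimulated CD28-/- column holds 39.

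After 24 h the lowest levels were those of CD28-/- cells. The 49 genes summed to 15970 to 17210 CPM in them, against 21790 to 22580 CPM in wild-type libraries. Of the 49 genes 39 were lower and 1 was higher, where 27.8% of all genes were lower and 23.7% higher, and the median was -0.36. Among the other biogenesis genes 74 of 103 were lower and 3 higher. The ribosomal protein genes differed little, with 5 of 83 lower, 2 higher and a median of -0.05. The lower genes included all 4 box C/D and all 4 box H/ACA genes, 4 of 5 nucleolar, 4 of 6 polymerase I, 6 of 10 processome, 4 of 5 late small subunit and 13 of 15 large subunit genes.

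Polr1c had the smallest p. It read 78.1, 89.6, 85.8 and 90.4 CPM in stimulated CD28-/- libraries and 147 to 154 CPM in wild-type ones, far apart (-0.81 ± 0.07, adjusted p = 4.8e-12). Nip7 read 131, 152, 145 and 154 CPM against 237 to 248 CPM (-0.74 ± 0.08, adjusted p = 1.4e-09). Noc4l read 159, 159, 158 and 159 CPM, nearly the same in all 4 CD28-/- libraries, against 243 to 272 CPM (-0.69 ± 0.07, adjusted p = 1.7e-10). Gar1 of the box H/ACA group (-0.62 ± 0.08), Nop16 (-0.60 ± 0.07) and Rrp1b (-0.51 ± 0.06) followed by p, with adjusted p of 2e-08, 1e-08 and 2.2e-08. Ncl read 3510, 3630, 3970 and 3770 CPM and Npm1 2230, 1890, 2440 and 2390 CPM, each below every wild-type library (-0.53 and -0.69). Nhp2 stood at 198, 213, 193 and 237 CPM, against 340 to 361 CPM in wild-type (-0.75). Every one of these genes was separated from wild-type in all libraries, which is likely for genes picked by a small p. The share of separated genes over all genes tested was not counted.

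Mdn1 was the gene that was higher in stimulated CD28-/- cells. It read 447, 504, 505 and 422 CPM against 336 to 359 CPM (0.45 ± 0.14, adjusted p = 0.006), and with the length trend removed its log2 fold change was 0.06 and not called. Polr1a (199, 234, 214 and 205 CPM), Utp20, Heatr1, Nol6, Ddx10, Noc3l, Ddx21, Polr1e and Tsr1 were the 9 genes without a call, with log2 fold changes of -0.16 to 0.07. CD4 T cell markers summed to 3540 to 4130 CPM in stimulated CD28-/- and 2840 to 3310 CPM in wild-type libraries, B cell markers to 60.7 to 89.7 and 28.7 to 74.7 CPM, and myeloid markers to 6.47 to 9.67 and 6.25 to 9.16 CPM. Stress and dissociation genes summed to 818 to 834 and 679 to 722 CPM, and NK and CD8 markers to 26.9 to 29.2 and 29.9 to 42.2 CPM. The CD4 T cell, stress and NK and CD8 sums were separated in all libraries. Their part in the difference was not tested.

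The rescue genotype carried the transgene on the CD28-/- background and stood between CD28-/- and wild-type. Its libraries summed to 18070 to 19730 CPM for the 49 genes, above every CD28-/- library and below every wild-type one. Against CD28-/- cells 14 genes were higher and 0 lower, where 9.52% of all genes were higher and 8.86% lower, and the median was 0.17. Among the other biogenesis genes 28 of 103 were higher and 0 lower. Noc4l had the smallest p, with 199, 212 and 220 CPM against 158 to 159 CPM (0.41 ± 0.07, adjusted p = 8.3e-05). Rrp1b read 227, 231 and 231 CPM against 181 to 201 CPM (0.28 ± 0.07, adjusted p = 0.0029), and Nolc1 632, 692 and 693 CPM against 536 to 605 CPM (0.26 ± 0.06, adjusted p = 0.0036). All 3 genes, picked by a small p, were separated in all libraries. Noc2l, which pairs with the large subunit factor Noc3l, read 595, 577 and 584 CPM against 497 to 530 CPM (0.20 ± 0.05, adjusted p = 0.0068). Large subunit genes made up 8 of the 14. NK and CD8 markers summed to 34.4 to 44.2 CPM in stimulated rescue and 26.9 to 29.2 CPM in CD28-/- libraries, and CD4 T cell markers to 3130 to 3500 and 3540 to 4130 CPM, both without overlap. The part of these markers in the difference was not tested.

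The count of 14 was not stable. It was 4 without stimulated rescue library 2, 6 without rescue library 3 and 7 without CD28-/- library 1, and it was 22 with DESeq2's size factors, 24 with DESeq2, 25 with the compared groups alone and 29 with the length trend removed. Against wild-type, rescue cells still had 25 genes lower and 2 higher (17.7% and 17.4% of all genes), with a median of -0.19. Polr1c read 94.5, 102 and 100 CPM in rescue libraries, under every wild-type library (-0.61 ± 0.07, adjusted p = 6.4e-08). Nop16 (-0.52 ± 0.08, adjusted p = 2.4e-06), Gar1 (-0.49 ± 0.08, adjusted p = 1.9e-05) and Nip7 (159, 184 and 190 CPM; -0.45 ± 0.09, adjusted p = 1e-04) were next. Mdn1 (514, 477 and 478 CPM) and Polr1a (236, 250 and 243 CPM) were higher than wild-type, by 0.51 ± 0.15 (adjusted p = 0.0064) and 0.25 ± 0.10 (adjusted p = 0.036). Neither of these 2 was called with the length trend removed (0.14 and 0.07). Stress and dissociation genes summed to 748 to 857 CPM in these rescue libraries, above every wild-type library, and their part was not tested.

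The transgene on the wild-type CD28 background went with fewer calls at 24 h than on the CD28-/- background. In stimulated T1792tg against wild-type cells 3 genes were higher and 0 lower, where 6.1% of all genes were higher and 6.45% lower, and the median was 0.10. Taf1d read 201, 170, 189 and 177 CPM against 148 to 160 CPM in wild-type (0.25 ± 0.07, adjusted p = 0.02). Noc2l read 689, 720, 722 and 720 CPM against 627 to 654 CPM (0.17 ± 0.05, adjusted p = 0.022), and Polr1a 205, 234, 251 and 291 CPM against 194 to 209 CPM (0.27 ± 0.09, adjusted p = 0.041). The first pair of genes was separated in all libraries and Polr1a overlapped. With the length trend removed Polr1a was not called (0.16, adjusted p = 0.15). The calls were weak. There were 0 without stimulated wild-type library 3 or T1792tg library 3, and 1 without wild-type library 2 or 4 or T1792tg library 4. The count was 1 with a term for sex and 6 without T1792tg library 1. With the compared groups alone 16 genes were higher, beside 15 called in naive T1792tg against wild-type cells under that setting. The number of calls thus does not rank naive against stimulated cells. The summed level of the 49 genes was 23640 to 24100 CPM in T1792tg libraries, above every wild-type library.

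Whether the transgene acted differently with and without CD28 at 24 h was tested as a difference of differences. None of the 49 genes was called by edgeR's test (1.33% and 0.784% of all genes were, in the 2 directions), 4 had an unadjusted p below 0.05, and DESeq2 called 1. Noc4l had the smallest p, with 0.34 ± 0.10 (adjusted p = 0.059), where the transgene's log2 fold change was 0.41 on the CD28-/- background and 0.07 on the other. It was called under 5 other settings that kept all compared libraries, at 0.32 to 0.35. Leaving out stimulated rescue library 1, T1792tg library 2 or wild-type library 4 also gave 1 call among the 49 genes. Gar1 (0.26 ± 0.11, adjusted p = 0.27) and Nip7 (0.24 ± 0.12, adjusted p = 0.35) came next.

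Deletion of the cluster went with lower levels at 24 h. In stimulated T1792del against wild-type cells 15 genes were lower and 0 higher, where 8.47% of all genes were lower and 7.77% higher, and the median was -0.13. Other biogenesis genes had 34 of 103 lower and 0 higher. Noc4l read 193, 174, 216 and 201 CPM, below every wild-type library (-0.38 ± 0.07, adjusted p = 0.00012). Nip7 read 189, 174, 206 and 220 CPM (-0.30 ± 0.08, adjusted p = 0.0083) and Noc2l 573, 543, 561 and 566 CPM (-0.18 ± 0.05, adjusted p = 0.0096), both also separated from wild-type. Rrs1, which brings the 5S particle into the large subunit, had -0.40 ± 0.08 (adjusted p = 0.00067), Imp3 -0.40 ± 0.10 (adjusted p = 0.0038) and Rrp9 -0.29 ± 0.08 (adjusted p = 0.012). Nop58 read 662, 608, 615 and 663 CPM, all under the wild-type libraries (-0.21).

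Stimulated T1792del library 2 stood apart from its group, with a mean over the 49 genes of 7.83 in log2(CPM + 1) where the other 3 lay at 8.01 to 8.03. Without it 5 genes were lower (Noc4l, Rrs1, Imp3, Noc2l and Nip7, with log2 fold changes of -0.34 to -0.17) and 1 was higher, Polr1a (0.30 ± 0.09, adjusted p = 0.03). With library 2 kept, Polr1a had 0.24, and 0.14 with the length trend removed, neither of them called. Without wild-type library 1 there were 9 calls, all lower. Red cell transcripts summed to 11.7 to 88.5 CPM in stimulated T1792del and 4.91 to 6.86 CPM in wild-type libraries, and NK and CD8 markers to 26.3 to 41.8 and 29.9 to 42.2 CPM. Stress and dissociation genes summed to 594 to 655 and 679 to 722 CPM. The red cell and stress sums did not overlap between the groups, and their part was not tested.

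**Figure D4:**
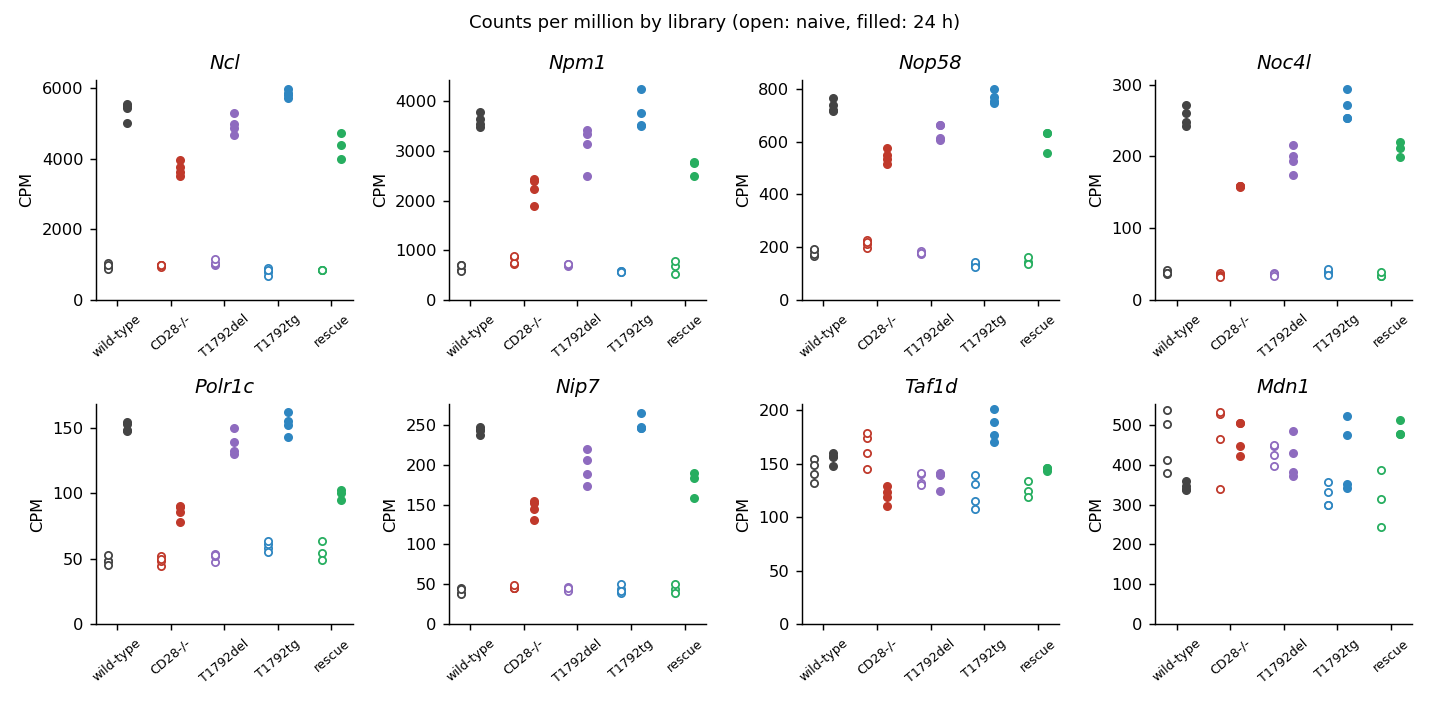
CPM of 8 genes in every library by genotype (x axis), with open points for naive and filled points for stimulated cells; each point is 1 library and the y axes start at 0. For Polr1c and Nip7 the stimulated CD28-/- libraries (78.1 to 90.4 and 131 to 154 CPM) lie below all stimulated libraries of the other genotypes, and Mdn1 is the gene whose stimulated wild-type libraries lie below the naive ones.

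The response itself, 24 h against naive, was compared between genotypes with an interaction term. Such a value is the 24 h difference minus the naive one and so rests on the same libraries. CD28-/- cells had a smaller response for 36 genes and a larger one for 0, where 22.4% of all genes had a smaller and 20.8% a larger value, and the median was -0.35. Npm1 had the difference -1.01 ± 0.14 (adjusted p = 4.3e-07), Nip7 -0.91 ± 0.12 (adjusted p = 8.2e-08) and Polr1c -0.82 ± 0.10 (adjusted p = 2.6e-08). Npm1 was higher in naive and lower in stimulated CD28-/- cells, so both states added to its value. Nop58, Gtpbp4 and Wdr12, which had the same pattern, had -0.69 ± 0.09, -0.68 ± 0.09 and -0.70 ± 0.11 (adjusted p = 1.1e-07, 3.5e-07 and 1.8e-06).

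The transgene went with larger responses on both backgrounds. In T1792tg against wild-type cells 29 genes had a larger response and 0 a smaller one (8.59% and 7.41% of all genes), with a median of 0.29. In rescue against CD28-/- cells 31 had a larger and 0 a smaller one (6.96% and 5.84%), with a median of 0.38. The 2 comparisons share no library, and 25 genes were in both lists, 86.2% of the first and 80.6% of the second. Here too the share over all genes tested was not counted. Most of the 25 were also among the 20 genes lower in both naive comparisons. The median differences were -0.19 and -0.22 in naive cells and 0.10 and 0.17 at 24 h. The naive decrease is thus a part of these values, which are no separate finding. Nop58 was first by p in both, with 0.51 ± 0.09 (adjusted p = 0.00018) and 0.70 ± 0.10 (adjusted p = 1.1e-05). For this gene the naive levels fell by 0.44 and 0.54 on the log2 scale, while the 24 h differences were 0.06 and 0.16 and not called. Polr1a and Polr1b had 0.69 ± 0.13 and 0.62 ± 0.11 in T1792tg cells (adjusted p = 0.00034 and 0.00028), and Taf1d and Nop2 had 0.66 ± 0.11 and 0.58 ± 0.10 in rescue cells (adjusted p = 0.00011 and 0.00013). Among the other biogenesis genes 34 and 49 of 103 had a larger response. Deletion of the cluster changed the response of 3 genes, all smaller (3.15% of all genes were larger and 2.95% smaller), which were Fbl (-0.34 ± 0.08, adjusted p = 0.0063), Rrs1 (-0.43 ± 0.12, adjusted p = 0.024) and Nip7 (-0.38 ± 0.12, adjusted p = 0.042). Fbl was higher in naive T1792del cells, by 0.25, which is a part of its value. The count of 3 became 7 with DESeq2 and 6 without stimulated T1792del library 3. It was 1 without stimulated T1792del library 1 or 2, naive wild-type library 3 or stimulated wild-type library 4.

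The size of these differences moved with the length of the gene. Over the 49 genes the Spearman correlation of the log2 fold change with the deposited length was -0.517 in naive T1792tg against wild-type cells. It was 0.594, 0.665 and 0.61 at 24 h in CD28-/-, T1792del and T1792tg against wild-type cells, and -0.123 in stimulated rescue against CD28-/- cells. Over all 13650 genes the values were -0.215, 0.171, 0.283, 0.228 and 0.007 in the same order. The 5 genes over 6000 bases were Mdn1 (21654 bases), Polr1a (8932), Utp20 (8831), Ncl (8257) and Heatr1 (6931). Their median difference between stimulated CD28-/- and wild-type cells was 0.05, and that of the other 44 genes was -0.37. With each library's trend over gene length removed, an alternative chosen after seeing the data, 26 genes were lower in naive T1792tg and 27 in naive rescue cells, and 42 were lower in stimulated CD28-/- and 11 in stimulated T1792del cells. Ncl was then lower by 0.71 in stimulated CD28-/- cells (log2 fold change -0.71). In naive cells Ncl was then called in neither comparison with the transgene. Heatr1 lost its call in naive T1792tg cells (-0.17, adjusted p = 0.097). What the length trend comes from was not tested.

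**Figure D5:**
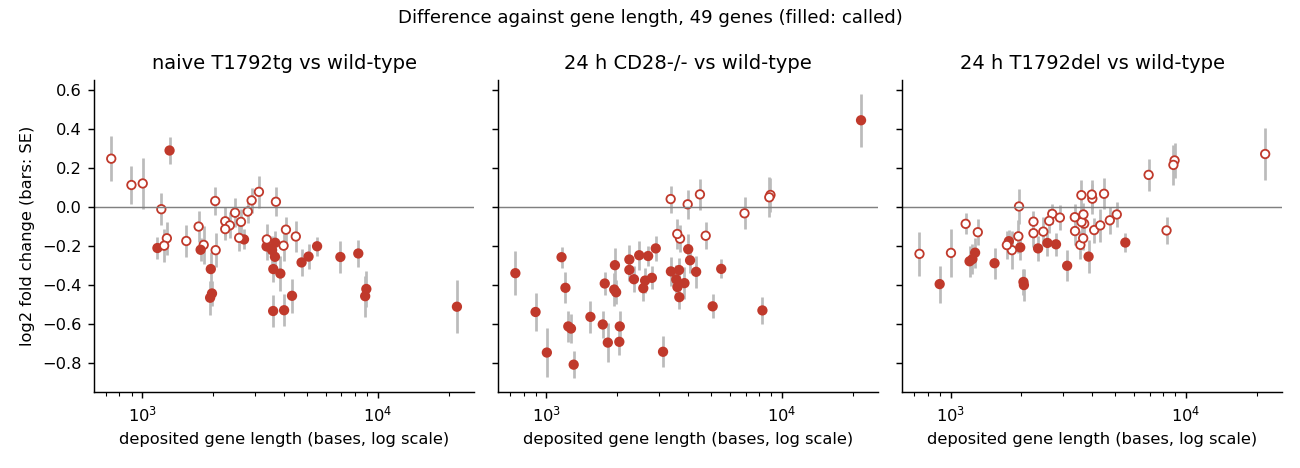
Log2 fold change of each of the 49 genes (y axis, bars are standard errors) against the gene length in the deposited table (x axis, log scale) in 3 comparisons; filled points are called. At 24 h the gene at the far right, Mdn1, lies above 0 and the shorter genes mostly lie below 0, whereas in naive T1792tg cells every gene at the right end lies below 0.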

How the data were processed

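The authors deposited whole-number counts of reads per gene, without normalization, for 38 libraries, with a length per gene. Per the labels' protocols, libraries were stranded TruSeq, read as single ends of 76 nt. The submitters' processing notes name STAR 2.5.2a for the mm10 build, FastQC 0.11.5, edgeR 3.24.3 and R 3.5. For the read counter and its annotation, nothing is stated in the sources used here. Entrez identifiers were matched to RefSeq symbols (GRCm38.p6) for 23968 of 24028 genes, and the rest held 0.0749% of counts. The members, role groups and lists were chosen with earlier results of these data known.

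Counts were scaled by TMM, filtered with filterByExpr (13650 genes kept) and fitted in edgeR 4.0.16 (R 4.3.3) with 1 coefficient per group over all 38 libraries. The quasi-likelihood F test, two-sided, was run on each of 19 contrasts, with Benjamini-Hochberg adjustment over all genes tested and calls below 0.05. The SE is the size of the log2 fold change divided by the square root of F. The script was tested on simulated data. Depth was 19427291 to 28020721 counts per library. The p-values rest on the spread between mice within groups, estimated over all groups and not only the compared ones.

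Genes were named by a rule. It took the largest and smallest wild-type change in each role group, up to 6 called genes with the smallest p per genotype comparison or interaction (3 where none was called), and called genes that moved against most of the set. Other values were chosen after they were seen. Genes picked by a small p tend to have separated libraries, so separation only describes them. Alternatives were DESeq2's size factors (RLE), DESeq2 1.42.0, no filter, a mean of at least 5 CPM, only the compared groups, replicate blocks, a term for sex (Xist above 5 CPM) and leaving out each library. Removal of each library's trend over gene length was added after seeing the data. Replicate numbers were checked for pairing of naive with stimulated libraries. Deviations from group means correlated at 0.145 to 0.418 for every number in wild-type and at 0.21 to 0.382 in T1792del cells. There the numbers were taken to pair samples, which the labels do not state. In the other genotypes the correlations did not all exceed 0.1. The printed p-values and SEs come from the fit without pairing. A replicate block within genotype left 48 calls in the wild-type and 47 in the T1792del response.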

Additional observations from a re-analysis of the deposited data

Results flagged for a closer look

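Single libraries far from the rest of their group of 4 were sought in 176 sets of 4 values, and 10 passed Dixon's critical value, where chance passes about 1 in 20. Stimulated T1792del library 2 was lowest in the mean over the 49 genes (7.83, others 8.01 to 8.03 in log2(CPM + 1)) and in the late small subunit group (7.21, others 7.48 to 7.53). Naive CD28-/- library 1 was lowest for Ncl (927 CPM, others 986 to 990) and highest for Fbl (59.7 CPM, others 53.5 to 54.4), and naive CD28-/- library 4 was highest for Nip7 (49.4 CPM, others 45.6 to 45.7). Stimulated wild-type library 1 was highest for Noc2l (654 CPM, others 627 to 632) and Fbl (220 CPM, others 205 to 207). Stimulated T1792tg library 1 was highest for Nip7 (265 CPM, others 246 to 248) and lowest for Noc2l (689 CPM, others 720 to 722). Stimulated T1792del library 3 was lowest for Taf1d (124 CPM, others 139 to 141).

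Responses that differed between genotypes by the interaction test are the other results singled out, as log2 differences. In CD28-/- against wild-type cells they were Polr1c -0.82, Nip7 -0.91, Nop58 -0.69, Gtpbp4 -0.68, Npm1 -1.01 and Wdr12 -0.70. In T1792del cells they were Fbl -0.34, Rrs1 -0.43 and Nip7 -0.38. In T1792tg cells Nop58 had 0.51, Polr1b 0.62, Polr1a 0.69, Noc2l 0.37, Rrp12 0.62 and Utp20 0.72. In rescue against CD28-/- cells Nop58 had 0.70, Ddx18 0.52, Taf1d 0.66, Nop2 0.58, Rrp1b 0.56 and Nolc1 0.51.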

How the results depend on the processing

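Of 345 refitted counts of called genes, 306 stayed within 1.5 times the reported count. Of 1633 refitted values of genes named by rule, 1544 kept direction and call, 80 lost the call, 8 gained it and 1 reversed, which was Mdn1 in wild-type cells, at 1.19 with the length trend removed. The replicate block over all groups left 48 calls in the wild-type response and 40 in stimulated CD28-/- against wild-type cells, and no block moved a count by over 1.5 times. Numbers across genotypes had a median correlation of 0.001 in naive and -0.001 in stimulated cells. In CD28-/-, T1792tg and rescue cells 2 of 4, 2 of 4 and 2 of 3 numbers exceeded 0.1 and matched best with their own number, short of the rule that all do, and there the block within genotype gave 36, 25 and 30 calls for the CD28-/-, T1792tg and rescue response differences.

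With DESeq2's size factors, DESeq2 and a mean of at least 5 CPM, the median response was 1.58, 1.58 and 1.53 in wild-type, 1.28, 1.28 and 1.26 in CD28-/-, 1.81, 1.81 and 1.73 in T1792tg and 1.70, 1.70 and 1.65 in rescue cells. It was 1.43 in T1792del cells with 5 CPM, and with the length trend removed 1.93 in T1792tg and 1.71 in rescue cells. Naive rescue against CD28-/- had a median of -0.19 with 5 CPM. With the compared groups alone, naive calls numbered 2 for CD28-/-, 15 for T1792tg and 9 for rescue. Stimulated T1792tg against wild-type had 8 calls with DESeq2, 1 without a filter, 16 with the compared groups alone, 1 with a term for sex and 6 with the length trend removed. Stimulated rescue against CD28-/- had 22 with the size factors, 24 with DESeq2, 25 with the compared groups alone and 29 with the length trend removed. The T1792del response had 7 with DESeq2 and 7 with 5 CPM. The difference of transgene effects had 1 call with the size factors, DESeq2, 5 CPM, the compared groups alone or the length trend removed. The cause of these moves was not tested.

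Leaving out 1 library gave these ranges of calls. Naive counts were 4 to 8 for CD28-/-, 20 to 25 for T1792tg and 19 to 27 for rescue. Stimulated counts were 39 to 41 for CD28-/-, 6 to 16 for T1792del (5 lower and 1 higher at the lowest), 0 to 6 for T1792tg, 4 to 17 for rescue against CD28-/- and 0 to 1 for the difference of transgene effects. The T1792del response count was 1 to 6, and the median T1792tg response was 1.84 to 1.94. The counts say nothing of the RNA content of a cell, and depth limited no call of the 49 genes to few reads.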

Other observations

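Myc, a transcription factor known to drive ribosome biogenesis genes, is not one of the 49 genes and was read beside them after its values were seen. At 24 h it stood at 496 ± 9.59 CPM in wild-type, 361 ± 17 in CD28-/-, 414 ± 36.1 in T1792del and 565 ± 30.3 in T1792tg cells (SD, n = 4 each), and at 454 ± 12.6 CPM in rescue cells (n = 3). Its highest and lowest group means, T1792tg and CD28-/-, are also those of the 49 genes' sum (23880 and 16660 CPM). Between them the order of the means differed. The sum was 20420 CPM in T1792del and 19020 CPM in rescue cells, where Myc was the higher. The libraries of these groups overlapped in both, at 19450 to 21260 and 18070 to 19730 CPM for the sum. For Myc they lay at 376 to 449 and 441 to 466 CPM. Naive wild-type cells held 148 ± 12.1 CPM of Myc and naive CD28-/- cells 83.4 ± 2.58 CPM (n = 4 each), while the 49 genes summed to 6018 and 6303 CPM. Naive T1792tg cells held 107 ± 8.64 CPM of Myc (n = 4), with a sum of 5127 CPM. Naive T1792del cells held 118 ± 17.9 CPM (n = 4) and naive rescue cells 79.4 ± 15.2 CPM (n = 3), with sums of 6127 and 5197 CPM. The lowest naive mean of Myc was in rescue and the lowest mean sum in T1792tg cells, but neither stood apart. Myc lay at 70.2 to 97 CPM in naive rescue and at 80.2 to 86.4 CPM in naive CD28-/- libraries. The sums lay at 5017 to 5206 CPM in naive T1792tg and at 5060 to 5323 CPM in naive rescue libraries. The part of Myc in the levels of the 49 genes was not tested.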
